A study of Mus musculus with 32 samples.

Results

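RNA pulled down with ribosomes tagged in cochlear outer hair cells was compared between 24 h and 6 h after noise. The pull-down also held RNA of other cells, as the marker sums given further on show. The comparison holds 6 pull-down libraries, 3 at each time, of the 32 libraries in the series, and all 39399 genes of its tables, of which 16703 were tested. The mice were 10 weeks old, of genotype PrestinCre/+;RiboTagHA/+ on a line given as PrestinCreERT2;RiboTag;CBA. Both groups had been exposed to noise of 105 dB SPL for 2 h. Time of day is not among the sample details used here, so it cannot be told apart from time after noise. The 3 pull-down libraries of mice of the same genotype without noise served as a reference for levels and entered the shared estimate of the spread, and all 3 groups carried both alleles. In RiboTag mice, cells with active Cre make Rpl22, a protein of the ribosome, with an HA tag. The Prestin driver, from the gene Slc26a5 that encodes the motor of electromotility, directs Cre to outer hair cells. The HA immunoprecipitate (IP) was made from homogenate of the whole cochlea, and an aliquot of each homogenate was sequenced as the whole cochlea (input). The labels call the libraries biological triplicates and call the IP enriched for outer hair cell transcripts.

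Outer hair cells amplify sound by changing length with voltage and are the cochlear cells most easily lost to noise. Cells under stress first switch on immediate early genes, whose transcription factors and feedback regulators are made within minutes and decline again as the stimulus ends. Interferon signalling, which runs from RNA and DNA sensors through transcription factors to the interferon-stimulated genes, is a slower programme best known from antiviral defence.

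Between 6 h and 24 h, 9 named genes passed the test in the outer hair cell IP. Mx1, Cxcl10, Tgtp1 and Ifit1, which are interferon-stimulated genes, and Rab17, a small GTPase of epithelial membrane traffic, rose. Gem, Nr4a1, Plk3 and Adamts1, which are early stress response genes, fell. The fitted changes ranged from -2.34 for Gem to 3.69 for Mx1 in log2(TPM + 1), where TPM is a gene's share of a library scaled for length, with a sum of 1000000. In all, 17 of 16703 genes were called at an adjusted p under 0.05 (0.102%), 10 of them higher at 24 h (0.0599%) and 7 lower (0.0419%), by limma with Benjamini-Hochberg adjustment. The other 8 are predicted genes, given last. Of the 17, Tgtp1 and Gm16141 reached the filter (at least 1 TPM in 3 libraries) only with the 24 h libraries where they are higher, and Gm26558 only with the 6 h libraries, so these 3 had to differ to be tested. At an unadjusted p under 0.05 there were 1328 genes (7.95%), 832 higher (4.98%) and 496 lower (2.97%).

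These counts rest on few libraries. Without the 24 h replicate 1 IP, 3 genes passed, and without any other 1 of the 6 noise libraries 0 did (870 to 1425 at an unadjusted p under 0.05). Without control replicate 3, 3 genes passed, and without control replicate 1, 37 did, among them all 17. Without the filter on low values 0 genes passed (1609 at an unadjusted p under 0.05). Control replicate 1 stands apart: for 41 of the 55 immediate early genes tested it was the lowest of the 3 controls, against 36.2% of all genes tested. All 9 named genes kept their direction under each of 15 alternatives. Their times did not overlap, which the naming required, so leaving out a library could not reverse the direction.

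**Figure D1:**
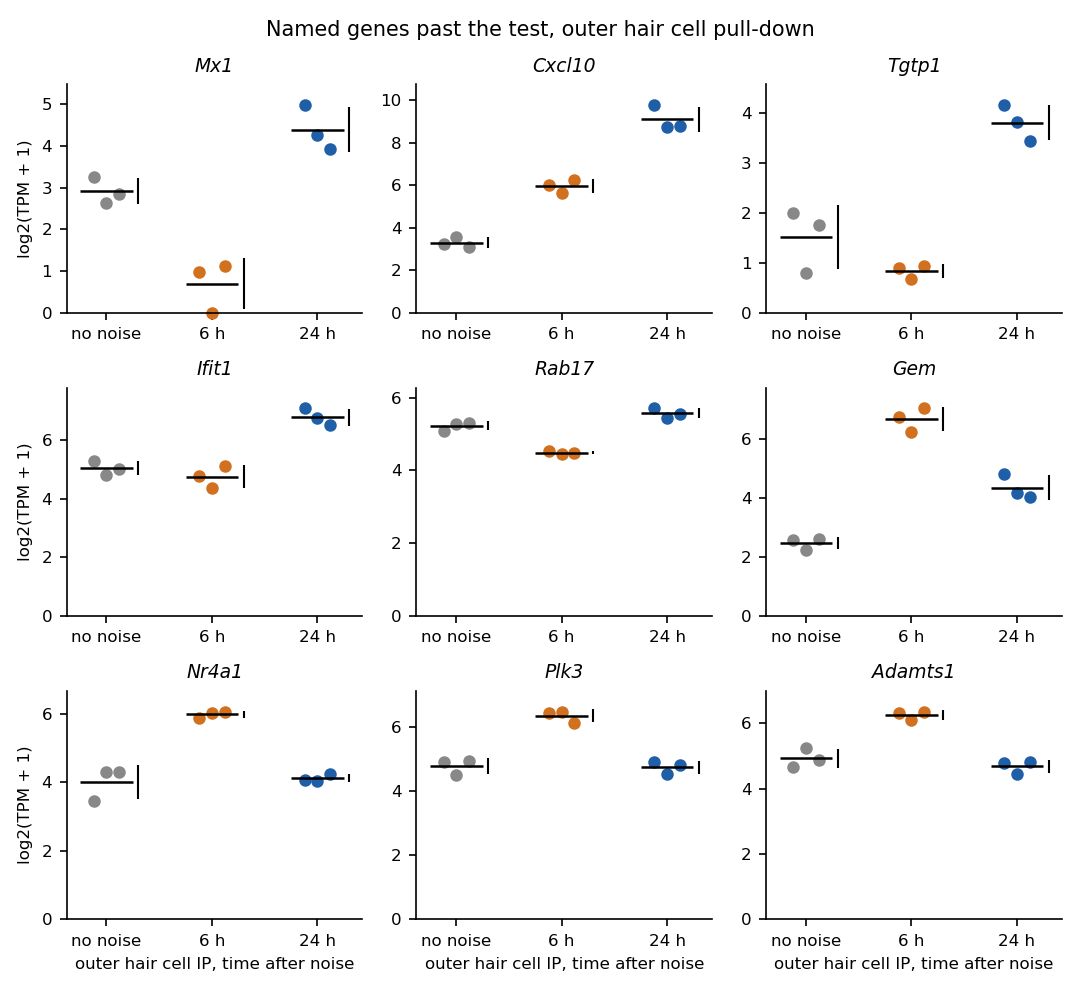
Levels in log2(TPM + 1) of the 9 named genes past the test, in the outer hair cell IP without noise, 6 h and 24 h after it. Each point is 1 library, the horizontal bar is the mean of 3 and the vertical line its SD. The 24 h libraries lie above all 6 h libraries in the first 5 panels and below them in the last 4.

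For 3 of the interferon-stimulated genes that rose, the stretch of 250 bases before the transcription start is shown because it holds the element that interferon-activated factors bind. Sequences are from RefSeq on GRCm38.p6, 5′ to 3′ on the strand of the gene, and capitals mark each match to the interferon-stimulated response element, searched on both strands as GAAA, any 2 bases and GAAA again. The window of Cxcl10 is chr5:92348890-92349139 (minus strand), that of Ifit1 chr19:34640639-34640888 (plus strand) and that of Tgtp1 chr11:48992247-48992496 (minus strand).
Cxcl10: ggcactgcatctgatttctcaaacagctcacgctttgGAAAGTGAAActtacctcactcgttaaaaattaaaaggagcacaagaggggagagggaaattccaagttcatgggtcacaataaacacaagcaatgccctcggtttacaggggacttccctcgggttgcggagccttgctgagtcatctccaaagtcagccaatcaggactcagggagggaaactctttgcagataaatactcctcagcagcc
Ifit1: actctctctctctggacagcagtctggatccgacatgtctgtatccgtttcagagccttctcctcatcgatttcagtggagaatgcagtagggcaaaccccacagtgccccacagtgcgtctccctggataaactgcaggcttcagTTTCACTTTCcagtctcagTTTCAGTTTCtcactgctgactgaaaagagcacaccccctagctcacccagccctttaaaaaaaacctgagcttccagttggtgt
Tgtp1: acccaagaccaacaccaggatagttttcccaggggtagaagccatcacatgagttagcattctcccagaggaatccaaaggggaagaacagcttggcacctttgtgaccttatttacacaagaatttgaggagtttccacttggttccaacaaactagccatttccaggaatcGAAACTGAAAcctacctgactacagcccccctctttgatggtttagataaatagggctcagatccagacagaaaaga

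The match in Cxcl10 begins 213 bases before the start, those in Ifit1 104 and 85 bases, and that in Tgtp1 77 bases. A match to the gamma-activated site TTCNNNGAA lies 88 bases before the start of Tgtp1, upstream of the first element and not overlapping it, and an AP-1 site (TGANTCA) 74 bases before that of Cxcl10. In windows of 300 bases, from 250 before to 50 after the start, the interferon-stimulated response element was found in 3.44% of all 32851 windows and in 3.52% of the 11072 windows of tested genes. It was found in 12 of 24 windows of the antiviral effectors described below in 8 of 9 of the interferon-inducible GTPases, in 5 of 20 of the interferon sensing and signalling genes, in 4 of 17 of the antigen presentation genes and in 1 of 3 of the interferon-induced chemokines. The windows of Rab17, Adamts1, Nr4a1 and Plk3 held none of the 6 motifs searched, which also included TGACGTCA, CACGTG and the CArG box. A match is a description of letters and not a measured binding site.

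Mx1 (ENSMUSG00000000386, chr16:97447035-97462907 on GRCm38) encodes a dynamin-like antiviral GTPase. Its level was 8.61, 5.25 and 6.18 TPM without noise, 0.957, 0 and 1.19 at 6 h and 30.6, 18.2 and 14.3 at 24 h. The 6 h libraries lay below all controls and the 24 h libraries above them. The change from 6 h to 24 h was 3.69 ± 0.38 (log2, SE of the fit, 3 libraries a group), with an adjusted p of 0.034. Cxcl10 (ENSMUSG00000034855, chr5:92346638-92348889), the chemokine that draws Cxcr3-bearing lymphocytes, stood at 8.38, 10.8 and 7.42 TPM without noise. It was 63.2, 48.4 and 74.9 TPM at 6 h and 868, 425 and 439 TPM at 24 h. Unlike Mx1, Cxcl10 was above every control at 6 h already, and it rose further by 3.13 ± 0.30 (adjusted p = 0.034). Cxcl10 overlaps Art3 on the other strand, and the use of strand in counting is not given in the sources used here.

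Tgtp1 (ENSMUSG00000078922, chr11:48985327-48994172) is an immunity-related GTPase. Its TPM was 0.859, 0.598 and 0.921 at 6 h and 16.8, 13.2 and 9.9 at 24 h, beside 2.99, 0.731 and 2.36 without noise, a change of 2.97 ± 0.34 (adjusted p = 0.035). Its value is uncertain because Tgtp2 is a near-identical copy, and Tgtp2 itself was 0.578, 2.34 and 0.363 TPM at 6 h and 10.7, 6.3 and 6.43 at 24 h (adjusted p = 0.149). Ifit1 (ENSMUSG00000034459, chr19:34640871-34650009), which binds RNA lacking a host cap, had 26.6, 19.6 and 34.3 TPM at 6 h and 136, 108 and 90.3 TPM at 24 h. The 6 h libraries of Ifit1 overlapped the control levels of 38.4, 27.3 and 31.5 TPM, and the 24 h libraries lay above both. The change was 2.03 ± 0.24 (adjusted p = 0.035). Rab17 (ENSMUSG00000026304, chr1:90958133-90969661) had 22.2, 21 and 21.2 TPM at 6 h against 51.1, 42.1 and 46.3 TPM at 24 h. It stood at 33.1, 37.6 and 38.9 TPM without noise, between the times, and rose by 1.08 ± 0.13 (adjusted p = 0.035).

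Gem (ENSMUSG00000028214, chr4:11704457-11714752) encodes a small GTPase that restrains voltage-gated calcium channels. Its TPM was 4.91, 3.77 and 5.14 without noise, 108, 75.5 and 132 at 6 h and 27.6, 17 and 15.5 at 24 h. The change was -2.34 ± 0.27 (adjusted p = 0.035), and every 24 h library still lay above every control. Nr4a1 (ENSMUSG00000023034, chr15:101254269-101274795), an immediate early nuclear receptor, was 57.7, 64.4 and 66.1 TPM at 6 h and 15.6, 15.5 and 18.1 TPM at 24 h. At 24 h it lay within the control range of 9.93, 18.9 and 18.5 TPM, after a change of -1.87 ± 0.24 (adjusted p = 0.044).

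Plk3 (ENSMUSG00000028680, chr4:117128655-117133963), a stress-responsive polo-like kinase, had 85.8, 87.5 and 67.6 TPM at 6 h and 28.9, 21.8 and 26.8 TPM at 24 h. The 24 h libraries of Plk3 lay within the control levels of 28.9, 21.4 and 29.4 TPM, and the change was -1.60 ± 0.19 (adjusted p = 0.035). Plk3 overlaps Tctex1d4 on the other strand. Adamts1 (ENSMUSG00000022893, chr16:85793827-85803113), a secreted metalloprotease that cleaves proteoglycans, was 78.9, 67.1 and 81.1 TPM at 6 h and 26.7, 21 and 27.2 TPM at 24 h. Its change was -1.57 ± 0.19 (adjusted p = 0.035), and 1 of its 24 h libraries lay below all controls (24.1, 36.8 and 28.6 TPM). For these 4 genes the 6 h and 24 h libraries did not overlap.

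The interferon-stimulated genes were described as lists. Of 35 antiviral effectors, 32 passed the filter of at least 1 TPM in 3 libraries, and 2 of these, Mx1 and Ifit1, were called. In 28 of the 32 all 3 libraries at 24 h lay above all 3 at 6 h, and in 0 the reverse, whereas 11.6% of all genes tested were separated upward and 7.97% downward. Of the 28, Oasl1 and Oas2 reached the filter only with the 24 h libraries, which fixes their direction. The median change was 1.52 over the 32 and 0.02 over all genes tested. The 3 effectors left out, Ifit1bl1, Oas3 and Slfn8, reached at most 1.67 TPM in the noise IPs.

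Ifit3b and Parp14, a mono-ADP-ribosyltransferase, lay just outside the threshold. Ifit3b had 16.7, 12.7 and 22.6 TPM at 6 h and 168, 98.2 and 135 TPM at 24 h (change 2.88 ± 0.37, adjusted p = 0.052). Parp14 had 9.36, 6.93 and 10.4 TPM and 32.6, 25.7 and 23.6 TPM (1.52 ± 0.21, adjusted p = 0.070). Ifit3b shares sequence with Ifit3, whose change was 2.70 ± 0.39 (adjusted p = 0.080). Isg15, the ubiquitin-like modifier, had 41.9, 21.3 and 64.2 TPM at 6 h and 337, 183 and 259 TPM at 24 h, and Rsad2, which makes a chain-terminating nucleotide, 39.7, 37 and 33.3 and 317, 138 and 139.6 TPM. For both, the times did not overlap (adjusted p = 0.101 and 0.088). The mean at 6 h lay below that of the controls for 25 of the 32 effectors and for 63.0% of all genes tested. At 24 h the mean lay above that of the controls for 29 of the 32, against 37.5% of all genes tested.

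Among the interferon-inducible GTPases, which attack the membranes of vacuoles that hold pathogens, 13 of 15 listed in the files passed the filter. Tgtp1 was called, 12 of the 13 were separated upward and 0 downward (11.6% and 7.97% of all genes tested), and the median change was 1.55. Of the 12, Tgtp1 and Ifi47 reached the filter only with the 24 h libraries. Igtp had 9.51, 6.58 and 13.8 TPM at 6 h and 33.5, 30.9 and 35.7 TPM at 24 h, Irgm1 had 42.8, 28.2 and 41.7 and 119.9, 90.9 and 78.6 TPM, and Iigp1 had 19, 11.9 and 17.5 and 165, 99.1 and 54.4 TPM. None of these 3 passed the test (adjusted p = 0.101, 0.129 and 0.164), though in each the times did not overlap.

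Of the 6 interferon-induced chemokines, Cxcl10 was called and 5 were separated upward (11.6% of all genes tested), with a median change of 2.23. Of the 5, Cxcl9 reached the filter only with the 24 h libraries. Cxcl11, the gene of a further Cxcr3 ligand, was 2.39, 3.12 and 1.63 TPM at 6 h and 14.7, 8.13 and 10.2 TPM at 24 h (adjusted p = 0.081). On GRCm38 Cxcl11 is annotated as a polymorphic pseudogene, and it overlaps Art3 on the other strand. Ccl12, a monocyte chemokine, had the largest fitted change of the list, 3.56 ± 0.88, with 7.49, 0 and 0.655 TPM at 6 h and 28.9, 27.5 and 25.8 TPM at 24 h, but it did not pass (adjusted p = 0.254). Ccl5 was 10.3, 5.02 and 1.83 and 59.2, 37.4 and 18.9 TPM (adjusted p = 0.254). Cxcl16, a membrane-bound chemokine, was the exception, at 28.7, 18.1 and 21.7 TPM at 6 h and 22.1, 18.3 and 13.8 TPM at 24 h, with overlap. On means, Cxcl10 had the highest level of the list at both times on the TPM scale, which is per length.

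Of the 22 genes of antigen presentation and the immunoproteasome that were tested, 0 were called by limma (14 at an unadjusted p under 0.05, all higher). The same p was reached by 4.98% of all genes tested in that direction. Of the 22, 16 were separated upward and 0 downward (11.6% and 7.97% of all genes tested), with a median of 0.81. Of the 16, Nlrc5 reached the filter only with the 24 h libraries. Tap1, which pumps peptides for class I molecules, was 10.1, 11 and 10.2 TPM at 6 h and 38.3, 33.8 and 40.3 TPM at 24 h (change 1.75 ± 0.28, adjusted p = 0.101). H2-T23, a nonclassical class I molecule, was 115, 80.1 and 164 and 350.1, 327 and 290.4 TPM (adjusted p = 0.129). Among its members Cd74, the class II invariant chain, overlapped, at 10.1, 9.37 and 14.3 TPM at 6 h and 10.9, 9.41 and 10.5 TPM at 24 h, a change of -0.10 ± 0.28. Class I genes of the H2 cluster are close copies, so reads may be split between them.

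The upstream genes of the pathway were tested as 23 sensors, receptors and signal carriers, with a median of 0.32. Of these, 0 were called by limma (8 at an unadjusted p under 0.05, against 7.95% of all genes tested). In 13 the times were separated upward, against 11.6% of all genes tested. Irf7, the factor that amplifies the interferon response, was 55.1, 20.9 and 64.1 TPM at 6 h and 341, 309.6 and 204 TPM at 24 h (change 2.70 ± 0.50, adjusted p = 0.129). The RNA sensor Ifih1 was 2.35, 1.97 and 3.75 and 7.01, 8.74 and 7.54 TPM (adjusted p = 0.159). The receptor chain Ifnar1 was 41.9, 39 and 39.2 and 52.1, 48.2 and 42.8 TPM, a fitted change of 0.24 ± 0.13. Of the ligands, Ifnb1 is listed at 0 TPM in all 9 libraries and Ifng in 8 of 9, with 0.285 TPM in the 24 h replicate 2 IP. The depth of these libraries is unknown, so no detection limit can be given for them.

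**Figure D2:**
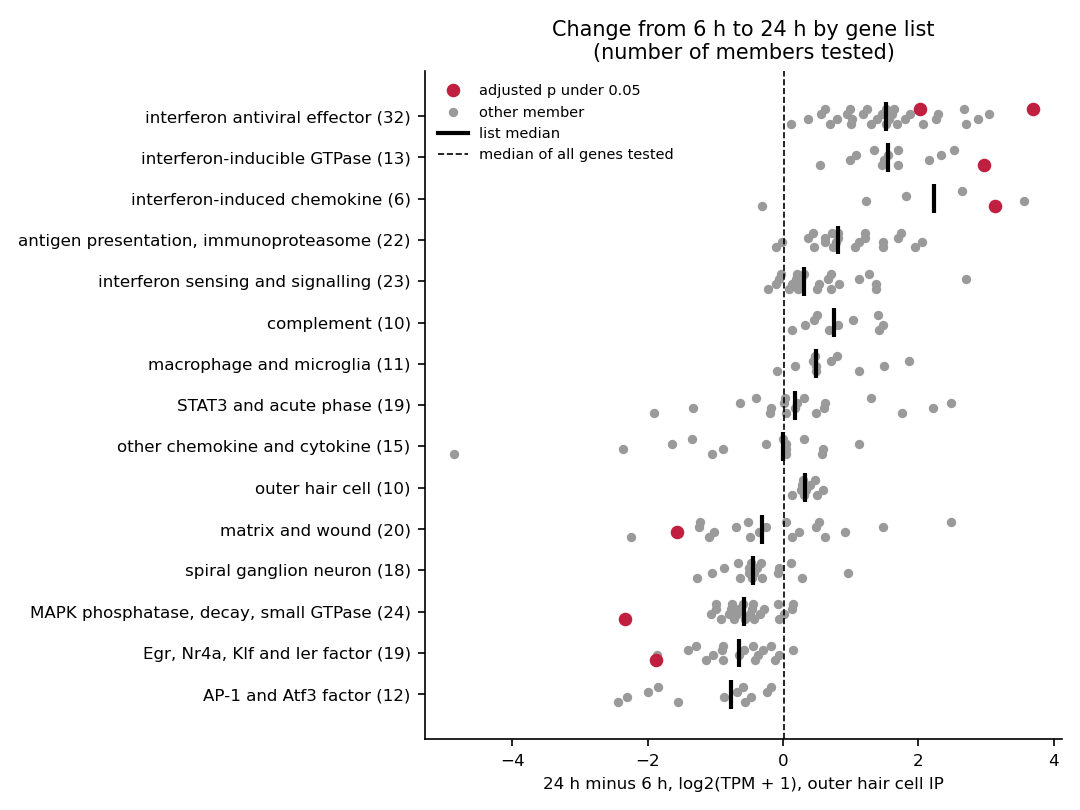
Change from 6 h to 24 h in the outer hair cell IP, in log2(TPM + 1), for the tested members of 15 gene lists. Each point is 1 gene, red where the adjusted p is under 0.05, the black bar is the list's median and the dashed line the median of all genes tested (0.02). The interferon lists lie to the right, with medians from 0.32 to 2.23, and the immediate early lists to the left, with medians from -0.78 to -0.58.

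The early response genes lay the other way. Of 12 AP-1 and Atf3 factors tested, 0 were called by limma (9 at an unadjusted p under 0.05, all lower), 11 were separated downward against 7.97% of all genes tested, and the median was -0.78. Maff, a small Maf factor, was 61.8, 32.9 and 44.3 TPM at 6 h and 10.0, 7.39 and 5.63 TPM at 24 h (change -2.43 ± 0.32, adjusted p = 0.052). Fos, the partner of Jun in AP-1, was 433, 399 and 365 TPM at 6 h and 97.3, 75.9 and 68.1 at 24 h, beside 8.25, 27 and 59.9 without noise (adjusted p = 0.254). In Fos each 24 h library was still above all controls. Atf3, a stress-induced repressor, was 6.49, 5.88 and 8.17 and 2.63, 1.05 and 1.49 TPM (adjusted p = 0.101).

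Of 19 Egr, Nr4a, Klf and Ier factors, Nr4a1 was called, 11 were separated downward and 0 upward (7.97% and 11.6% of all genes tested), with a median of -0.65. Of the 11, Nr4a3 reached the filter only with the 6 h libraries. Csrnp1, a further immediate early factor, was 79.5, 63.4 and 65.3 TPM at 6 h and 33.3, 29.4 and 37.5 TPM at 24 h (change -1.03 ± 0.16, adjusted p = 0.089). Myc, the growth factor-induced transcription factor, was 46, 47.7 and 51.1 and 27.4, 14.8 and 17.5 TPM (adjusted p = 0.182). Ier2 overlapped between the times, with 1981, 1963 and 1698 TPM at 6 h and 1722, 1391 and 1477 TPM at 24 h, and its controls were 65.4, 1010.4 and 1211 TPM, which shows the low value of control replicate 1.

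Of 24 MAP kinase phosphatases, RNA decay factors and feedback regulators, Gem was called, and the median was -0.58. Of the 24, 13 were separated downward and 0 upward (7.97% and 11.6% of all genes tested). Spry2, which damps receptor kinase signalling, was 175, 168 and 164 TPM at 6 h and 111, 109 and 101 TPM at 24 h (adjusted p = 0.232). Dusp1, the phosphatase of p38 and Jnk, was 226, 172 and 189 and 108, 109 and 92.5 TPM (adjusted p = 0.749). Zfp36l1, which directs mRNA decay, overlapped between the times, at 1472, 1062 and 1059 and 1527, 1375 and 1069.7 TPM. The mean at 24 h lay between those of the controls and 6 h for 16 of these 24 genes, 16 of the 19 in the preceding list and 10 of the 12 AP-1 and Atf3 factors. The same held for 40.0% of all genes tested.

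Among 15 other chemokines and cytokines 0 were called by limma (1 higher and 5 lower at an unadjusted p under 0.05). Of them 4 were separated downward and 0 upward, against 7.97% and 11.6% of all genes tested. Gdf15, a stress-induced hormone, was 0.986, 3.28 and 17.5 TPM without noise, 477, 358 and 492 at 6 h and 32.7, 12.3 and 6.71 at 24 h. The times did not overlap, and the fitted change was -4.86 ± 0.81 with an adjusted p of 0.103. In the limma fit on the 6 noise libraries alone, Gem and Ifit1 of the 9 named genes did not pass. List members beyond the 9 that passed it were Gdf15 (adjusted p = 0.042), Fos (0.013), Tap1 (0.013), Ifit3b (0.031), Klf4 (0.031), Timp1 (0.040) and Gbp2 (0.045). The neutrophil chemokine Cxcl1 was 20.5, 18.1 and 13.3 TPM at 6 h and 10.2, 1.96 and 4.77 TPM at 24 h and is listed at 0 in all controls (adjusted p = 0.287). Ccl2, which draws monocytes, overlapped, at 148, 97.8 and 68.2 and 247, 99.3 and 138 TPM.

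Of 20 matrix and wound genes tested, Adamts1 was called, 10 were separated downward and 3 upward, against 7.97% and 11.6% of all genes tested. Plau, the urokinase, was 15, 12.6 and 16.7 TPM at 6 h and 5.3, 5.68 and 5.84 TPM at 24 h (change -1.25 ± 0.21, adjusted p = 0.101). Mmp3, a metalloprotease, is listed at 0 TPM in all 6 h libraries and controls and was 1.64, 2.99 and 1.06 TPM at 24 h (adjusted p = 0.145), so it reached the filter only with the 24 h libraries and its place among the 3 separated upward follows from that. Timp1, an inhibitor of metalloproteases, was 1.66, 1.97 and 2.34 TPM at 6 h and 19.4, 18.6 and 10.6 TPM at 24 h, with no overlap (adjusted p = 0.241). Of 19 genes of the Stat3 and acute phase response, 3 were separated upward and 2 downward, against 11.6% and 7.97% of all genes tested. By limma 0 were called (3 and 2 at an unadjusted p under 0.05). Saa3, 1 of the 3, and Hamp, 1 of the 2, reached the filter only with the libraries where they are higher. Serpina3n, a secreted protease inhibitor, was 1.4, 0.278 and 1.41 TPM at 6 h and 7.07, 8.48 and 8.75 TPM at 24 h (adjusted p = 0.113).

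Complement genes lay higher at 24 h in 7 of 10 tested with no overlap and in 0 the reverse, against 11.6% and 7.97% of all genes tested. Their median was 0.75, and 0 were called by limma (6 at an unadjusted p under 0.05, against 7.95% of all genes tested). Of the 7, C1rl reached the filter only with the 24 h libraries. C4b, a component of the classical pathway, was 9.31, 7.57 and 9.82 TPM at 6 h and 29.2, 24.8 and 21.5 TPM at 24 h (change 1.40 ± 0.23, adjusted p = 0.103). C1qa, which macrophages make, was 29.8, 14.5 and 30.2 and 72.2, 70.5 and 62.2 TPM (adjusted p = 0.149).

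Marker sums of other cell types are given beside these lists, and 0 of their members were called by limma. The 16 macrophage and microglia markers summed to 118 to 210.1 TPM at 6 h, 299.7 to 418 TPM at 24 h and 143 to 175 TPM without noise, with no marker at 0 in all libraries of a group. Of the 11 tested, 0 were called by limma (4 at an unadjusted p under 0.05) and 7 were separated upward. The shares of all genes tested were 7.95% at that p and 11.6% separated upward. Cd68, a lysosomal protein of macrophages, was 27.4, 11.2 and 30.4 TPM at 6 h and 74.5, 139 and 48.1 TPM at 24 h, while Csf1r, the receptor that defines the lineage, was 4.2, 2.18 and 4.86 and 4.43, 4.7 and 3.52 TPM, with overlap. The pan-leukocyte gene Ptprc was at most 0.713 TPM in the noise IPs, and Adgre1 at most 0.162 TPM. In the whole cochlea the 16 markers summed to 197 to 353 TPM at 6 h and 482 to 498 TPM at 24 h. The part of macrophage RNA in the interferon, chemokine and complement values was not tested.

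Fibrocyte markers summed to 5378 to 7775 TPM at 6 h and 8140 to 10190 TPM at 24 h, with 6 of 13 separated upward. Slc4a11, a membrane transporter of fibrocytes, was 611, 361 and 699 TPM at 6 h and 1435, 1782 and 1419.9 TPM at 24 h (adjusted p = 0.128). Spiral ganglion neuron markers summed to 1426 to 2006 TPM at 6 h and 1123 to 1597 TPM at 24 h, with 5 of 18 separated downward, 1 upward and a median of -0.45. The 6 h replicate 2 IP had the highest sum at that time. Kcnc1, a potassium channel of fast-firing neurons, was 28.7, 99.6 and 32.3 TPM over the 3 libraries at 6 h. Without that library the median of the neuron list was -0.29. Supporting cell markers summed to 4534 to 5630.0 TPM at 6 h and 6111 to 6892 TPM at 24 h, but of the 20 tested 13 had a fitted change below 0, 4 were separated downward and 2 upward, with a median of -0.10. Neutrophil and monocyte markers summed to 46.8 to 143 and 75.8 to 210.0 TPM, with 0 of 14 separated in either direction. Of all genes tested, 11.6% were separated upward and 7.97% downward. In the whole cochlea of the same homogenates supporting cell markers summed to 4312 to 5225 TPM at 6 h and 5371 to 6144 TPM at 24 h, and fibrocyte markers to 9900.3 to 11853 and 11283 to 12632 TPM. In bulk RNA, fewer cells of a type cannot be told apart from less RNA per cell.

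**Figure D3:**
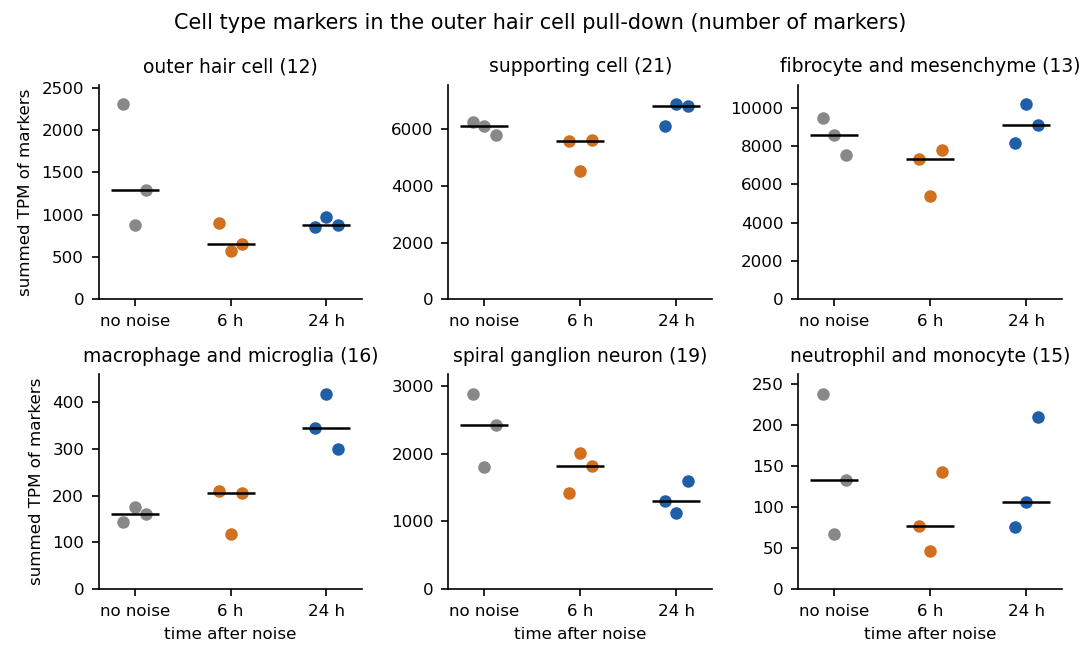
Summed TPM of marker genes for 6 cell types in each outer hair cell IP without noise, 6 h and 24 h after it. Points are libraries and bars the median of 3. Macrophage markers are higher in all 24 h libraries (299.7 to 418) than in all 6 h libraries (118 to 210.1), while outer hair cell markers overlap.

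The outer hair cell markers themselves showed no called change. Their 12 genes summed to 576 to 898 TPM at 6 h and 855 to 968 TPM at 24 h, against 877 to 2308 TPM without noise, where control replicate 1 was the highest. In the whole cochlea they summed to 113 to 134 TPM at 6 h and 116 to 137 TPM at 24 h. Of the 10 tested, 0 were called by limma (1 at an unadjusted p under 0.05) and 2 were separated upward, against 11.6% of all genes tested. All 10 had a fitted change above 0, with a median of 0.33. Ocm, the calcium buffer oncomodulin, was 599, 381 and 469 TPM at 6 h and 545, 650.4 and 616 TPM at 24 h in the IP. In the whole cochlea of the same homogenates Ocm was 73.2, 62 and 78.7 and 49.7, 73.3 and 58.6 TPM. Slc26a5, whose promoter drives Cre, was 17.2, 6.92 and 6.26 and 18.5, 15 and 7.92 TPM in the IP and 1.75, 1.31 and 1.53 and 1.67, 1.57 and 1.33 TPM in the whole cochlea. Every IP library exceeded every whole-cochlea library for both genes. Rpl22, which carries the tag, was 85.3, 87.6 and 105 TPM at 6 h and 99.1, 92.1 and 110.1 TPM at 24 h in the IP (change 0.12 ± 0.15).

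The noise IPs listed 18592 to 19672 genes above 0 TPM. Mitochondrially encoded genes took 10.6% to 13.7% of TPM at 6 h and 7.40% to 13.1% at 24 h, and Malat1 took 12251 to 22823 TPM in the noise IPs against 44030 to 73023 TPM without noise. Rescaling without these genes and the microRNA gene Mir6236 left 17 calls, 16 of them shared. The list directions given above were the same on both other scales tried.

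Next came the question of whether the change from 6 h to 24 h in the IP differed from that in the whole cochlea. In a fit of all 18 Prestin libraries, the whole cochlea had 298 of 17363 genes called between the times (1.72%), 184 higher (1.06%) and 114 lower (0.657%). All 9 named genes of the IP were among them, with a largest adjusted p of 0.020. Of the antiviral effectors, 22 of 32 were called higher in the whole cochlea and 0 lower, and of the AP-1 and Atf3 factors 9 of 12 were called lower. The IP and whole-cochlea libraries share homogenates, so these counts are not independent of the IP values. The IP counts given earlier come from a separate fit, of the 9 Prestin IP libraries alone, with its own estimate of the spread. The larger counts here therefore do not show that the whole cochlea changed more broadly than the IP.

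The difference of changes, IP minus whole cochlea, was called for 4 of 17363 genes (0.023%) and for 0 of the 9 named genes by limma (445 of all genes at an unadjusted p under 0.05, 2.56%). With the homogenate as a block 0 genes were called (526 at an unadjusted p under 0.05). The differences given next are from the fit without that block. Of the interferon and immediate early lists Ccl12 had the largest such difference, 1.79 ± 1.02 (adjusted p = 1). Of the 9 named genes Mx1 had the largest, 1.46 ± 0.47 with an unadjusted p of 0.0084 and an adjusted p of 1. In the whole cochlea Mx1 was 0.363, 0.195 and 0.632 TPM at 6 h and 7.8, 6.09 and 3.47 TPM at 24 h, below the IP of the same homogenate at both times except for the 6 h replicate 2 IP, where it is listed at 0. Cxcl10 in the whole cochlea was 28.3, 31.2 and 24.5 and 344, 146 and 170.3 TPM, so its level was lower than in the IP but its change, 2.83 ± 0.45, was of similar size, with a difference of 0.30 ± 0.64. For Gem the difference was 0.57 ± 0.43, and for Plk3 -0.63 ± 0.26 (unadjusted p = 0.028). None of these differences passed adjustment, which does not show that the changes were equal.

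The list median was 1.52 in the IP and 1.51 in the whole cochlea for the antiviral effectors, and 1.55 and 1.11 for the GTPases. It was 2.23 and 2.12 for the interferon-induced chemokines, and -0.78 and -0.91 for the AP-1 and Atf3 factors. The median difference of changes was -0.09 for the effectors, 0.27 for the GTPases and 0.17 for the AP-1 and Atf3 factors, and 0.02 for all genes. Levels in the IP were not higher for every list. At 24 h the effectors summed to 5049 to 6593 TPM in the IP and 5798 to 8000 TPM in the whole cochlea. The antigen presentation genes summed to 1955 to 2236 and 2331 to 2868 TPM. The GTPases were higher in the IP (310 to 552 against 196 to 303 TPM). So were the sensing and signalling genes (1064 to 1393 against 403 to 535 TPM). The same held for the interferon-induced chemokines (509 to 996 against 223 to 459 TPM).

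**Figure D4:**
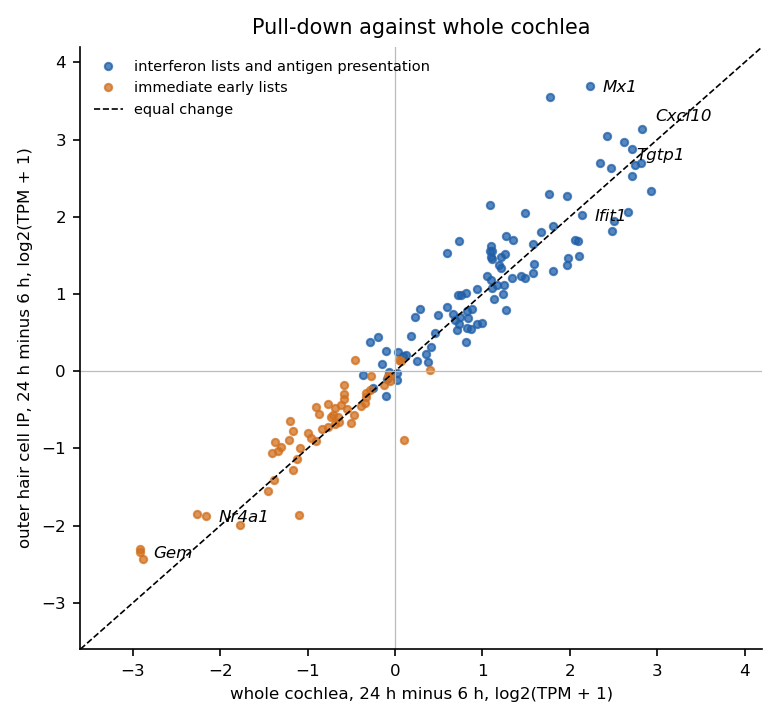
Change from 6 h to 24 h in the outer hair cell IP (vertical axis) against that in the whole cochlea of the same homogenates (horizontal axis), both in log2(TPM + 1). Each point is a member of the interferon and antigen presentation lists (blue) or the immediate early lists (orange), and the dashed line marks equal change. Mx1 lies above the line, with 3.69 in the IP and 2.24 in the whole cochlea, as does the unlabelled Ccl12, with 3.56 and 1.77.

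The change was also compared with that in the supporting cell IP of the other strain, given as Sox2CreERT2;RiboTag;CBA, with 3 libraries at 24 h and 2 at 6 h, after the same noise. In the supporting cell IP, Cxcl10 was 36.7 and 38.3 TPM at 6 h and 409, 383 and 219.5 TPM at 24 h, and Gem was 77.3 and 171 and 8.72, 10.4 and 18 TPM. Mx1 was 1.05 and 7.16 TPM in the 2 libraries at 6 h and 14.7, 17 and 12 TPM at 24 h. The differences of changes between the pull-downs were 0.05 ± 0.46 for Cxcl10, 0.83 ± 0.51 for Gem and 1.78 ± 0.75 for Mx1, and none of the 9 named genes passed (adjusted p from 0.57 to 0.99). A difference that misses the threshold does not show that the pull-downs changed alike, and the supporting cell IP has 2 libraries at 6 h.

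Over all 18083 genes tested the difference between the pull-downs was called for 25 (0.138%), 4 higher (0.0221%) and 21 lower (0.116%) in the outer hair cell IP. Of these 25, 14 were predicted genes, pseudogenes or small RNA genes, 12 are listed at 0 in both supporting cell IPs at 6 h, and 0 belong to the interferon or immediate early lists. The lists do not hold every related gene. Shfl, an antiviral gene outside them, was called, with a difference of -2.19 ± 0.28. Its change was -0.23 ± 0.17 in outer hair cell pull-downs and 1.97 ± 0.21 in those of supporting cells. In the latter Shfl was 43.9 and 37.7 TPM without noise, 7.09 and 11.4 at 6 h and 43.6, 38 and 33.5 at 24 h. Gvin-ps7, a pseudogene named like Gvin1 of the GTPase list, was called too (-2.23 ± 0.34). The 6 h supporting cell IPs list 16009 to 16256 genes above 0 TPM, and those at 24 h 18072 to 19309. Without any 1 of the 6 outer hair cell noise IPs or the 3 supporting cell IPs at 24 h, 4 to 16 genes were called. Without the 6 h supporting cell replicates 2 and 4 in turn there were 134 and 78, with the 1 supporting cell library then left at 6 h assumed to vary like the other groups. Without the outer hair cell control replicate 1 there were 42. Lgals4, a galectin, was 12.1, 14.7 and 20.9 TPM at 6 h and 10.1, 13.9 and 13.5 TPM at 24 h in the outer hair cell IP, and 1.31 and 0 and 8.56, 9.01 and 8.82 TPM in the supporting cell IP. The change in the outer hair cell IP was -0.30 ± 0.24, and the called difference was -2.99 ± 0.48.

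The 8 predicted genes among the 17 calls were named after their values were seen. Gm38164, a processed pseudogene inside Copa, is listed at 0 TPM in all 6 h IPs, was 26.7, 14 and 12.2 TPM at 24 h and was 13.8, 13.1 and 27.5 TPM without noise. Gm37979, an unclassified model inside Armc1, was 0, 0 and 0.716 TPM at 6 h, 14.4, 11 and 6.28 at 24 h and 43.5, 48.5 and 64.6 without noise. Gm15971, a processed pseudogene inside Dyrk1a, went the other way, with 28.9, 12.6 and 31.5 TPM at 6 h and 0 in all 24 h IPs. These 3 lie within genes read from the same strand, so their reads cannot be told from those of the host.

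Gm16141, annotated antisense to Meis1, was 0.379, 0 and 0 TPM at 6 h and 4.02, 3.44 and 3.01 TPM at 24 h. Gm19569 was 3.02, 4.21 and 3.71 and 12.3, 13.1 and 15.4 TPM, and Gm37374 was 35.2, 21.4 and 28.7 and 99.4, 93.9 and 77.4 TPM, both higher at 24 h. Gm13199, across Nudt5, was 30.2, 31 and 35.2 TPM at 6 h and 11.4, 10.8 and 8.89 TPM at 24 h, and Gm26558, across Gorasp2, was 7.38, 13.2 and 9.55 and 0.509, 0 and 0 TPM, both lower at 24 h. Of the 8, Gm38164, Gm37979 and Gm16141 also passed the test of the difference from the whole cochlea.

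**Figure D5:**
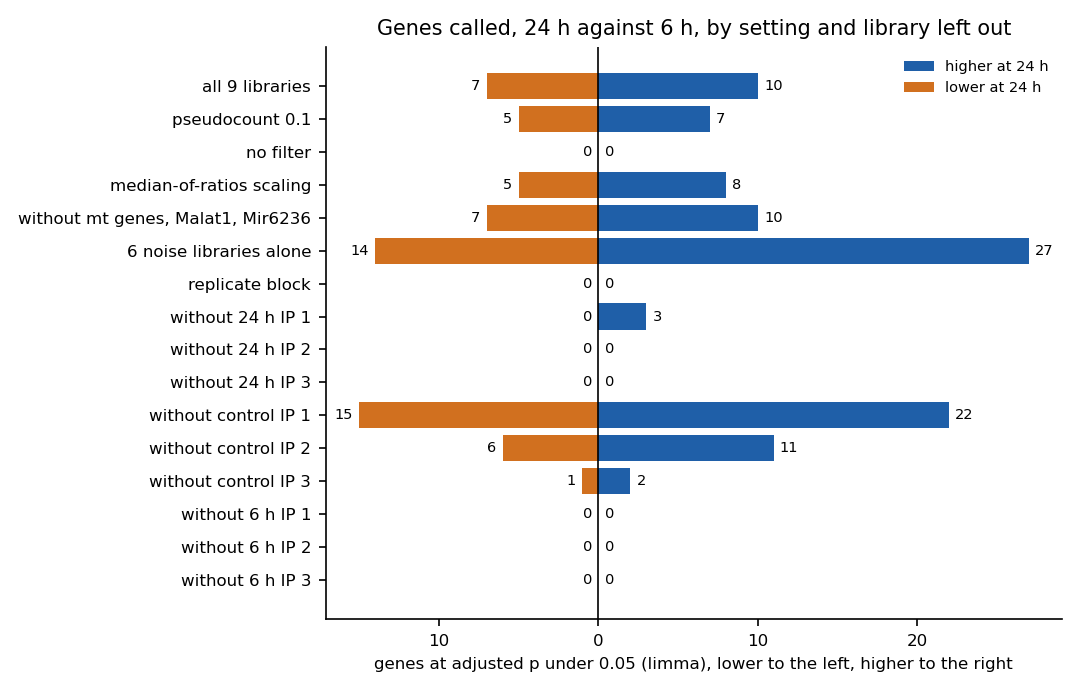
Number of genes past an adjusted p of 0.05 in the comparison of 24 h with 6 h, higher to the right and lower to the left, for all 9 libraries, each alternative and each library left out. The count falls to between 0 and 3 without any 1 of the 6 noise libraries, and is 37 without control replicate 1 and 41 in the 6 noise libraries alone.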

How the data were processed

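RNA sequencing libraries were made from the HA pull-down and the whole cochlea of each homogenate, per the labels' protocols, with a kit that keeps strand. The deposited values are TPM per gene, made by the authors with an unnamed counter; each library sums to 1000000 and depth is unknown. TopHat and GRCm38 are named in the submitters' processing notes, while the sources used here do not give versions, annotation or use of strand. The test was limma 3.58.1 (R 4.3.3; lmFit and trended eBayes) on log2(TPM + 1) with group means, Benjamini-Hochberg adjustment and a threshold of 0.05. Genes with at least 1 TPM in 3 libraries were tested (in 2 for the comparison of strains, with a value above 0 in each). The 9 Prestin IP libraries shared 1 estimate of the spread; changes are given ± SE. The whole-cochlea change was read from the 18-library fit, a reading added after the data were seen. IP and input of 1 homogenate are paired by design. Their deviations from group means had r from 0.025 to 0.28 over 9 pairs, against -0.23 to 0.041 for others. These ranges overlap over all groups together, but within each group every pair of 1 homogenate had a higher r than all others. The differences of changes quoted between IP and whole cochlea come from the fit without this pairing. Genes past the threshold were named by size of change, up to 12 in each direction (6 for differences of changes), where the higher group averaged at least 5 TPM and, in the first comparison, the times did not overlap. This left out predicted, pseudo- and small RNA genes. Up to 4 members of each described list by smallest p were added, as were Mx1, Cxcl10, Gem, Slc26a5, Ocm and Rpl22. Further members named beside these were chosen after their values were seen. Members and lists were chosen with earlier results of these data known. GENCODE M21 gave positions and held 39345 of 39399 identifiers. RefSeq promoter windows were matched by symbol, and Mx1 and Gem had none. The fit was checked on simulated data. Tables and figures used Python 3.11.15, pandas 2.3.3, numpy 2.4.6 and matplotlib 3.10.9. Alternatives changed the pseudocount, filter, scale, libraries and block.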

Additional observations from a re-analysis of the deposited data

Results flagged for a closer look

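The change from 6 h to 24 h differed by the test of the difference itself in a few genes, given here as fitted differences of log2(TPM + 1). Outer hair cell IP minus whole cochlea was 4.44 for Gm38164, 3.58 for Gm37979, 2.78 for Gm16141 and 1.98 for Gm6181. Gm6181 is listed at 0 TPM in all 9 outer hair cell IPs, and its difference comes from the whole cochlea, with 3.99, 1.97 and 3.18 TPM at 6 h and 0 in all libraries at 24 h. Gm38164 is listed at 0 in all 6 h IPs, so for both the fitted value depends on the pseudocount. Gm16141 reached the filter in the outer hair cell IPs only with the 24 h libraries. None of the 4 passed with the homogenate as a block.

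Outer hair cell IP minus supporting cell IP was 3.19 for Apom, -4.88 for Pcdhb8, -4.55 for Lypd2, -3.33 for Tmod4, -2.99 for Lgals4, -2.68 for Ushbp1 and -2.23 for Rragb. Apom, an apolipoprotein, is listed at 0 in all 3 outer hair cell IPs at 6 h and was 4.38 and 6.23 TPM in the supporting cell IPs at 6 h and 0 at 24 h. It reached the filter for this comparison only with those 2 libraries and was not tested in the outer hair cell IP alone. Pcdhb8, Lypd2 and Tmod4 are listed at 0 in both supporting cell IPs at 6 h. Lypd2 was 16.5, 16 and 18.1 TPM at 6 h and 16.9, 13 and 17.8 TPM at 24 h in the outer hair cell IP, and 19, 22.9 and 21.5 TPM in the supporting cell IP at 24 h. Rragb, a small GTPase of amino acid sensing, was 1.79 and 1.64 TPM at 6 h and 5.5, 10.0 and 7.07 TPM at 24 h in the supporting cell IP, and 4.37, 6.47 and 6.1 and 2.93, 3.56 and 3.48 TPM in the outer hair cell IP.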

How the results depend on the processing

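Between 24 h and 6 h in the outer hair cell IP, 17 genes were called, 10 higher and 7 lower. The 6 noise libraries alone gave 41, 27 and 14, with 14 of the 17 shared (not Gem, Ifit1 and Gm37374), and no filter gave 0, 0 and 0. With the replicate number as a block the counts were 0, 0 and 0, but the numbers do not pair the samples (same-number deviations r from -0.036 to 0.040, 3 pairs). Leaving out 1 library gave 0 to 37, 0 to 22 higher and 0 to 15 lower. Pseudocount 0.1 and median-of-ratios scaling gave 12 and 13. For IP minus whole cochlea the count of 4, all higher, became 1 with pseudocount 0.1, 2 with median-of-ratios scaling and 0 with the homogenate as replicate block, and the count lower, 0, became 1 without a filter and in the 12 noise libraries alone. Leaving out 1 homogenate gave 1 to 6, 1 to 6 higher and 0 to 2 lower. For outer hair cell IP minus supporting cell IP, 25 calls (4 higher, 21 lower) became 76 (73 lower) with pseudocount 0.1 and 1 (0 higher, 1 lower) with the replicate block. Leaving out 1 library gave 4 to 134, 0 to 19 higher and 4 to 115 lower. The cause of these shifts was not tested. Named genes of the first comparison kept their direction in all alternatives run, and adjusted p of the 9 called ranged from 0.0099 to 0.22. For those 9 the times did not overlap, so leaving out a library could not reverse the direction. TPM keeps no depth, so precision rests on the number of libraries.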

Other observations

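Clock genes were not described above. Of 19 tested, 0 were called by limma between 24 h and 6 h in the outer hair cell IP (4 higher and 5 lower at an unadjusted p under 0.05), and 6 were separated upward and 7 downward, against 11.6% and 7.97% of all genes tested. Npas2, 1 of the 7, reached the filter of at least 1 TPM in 3 libraries only with the 6 h libraries. Arntl, the partner of Clock, was 2.26, 3.27 and 2.44 TPM at 6 h and 0.975, 1.16 and 1.18 TPM at 24 h. Its output gene Dbp was 261, 194 and 279 and 422, 371 and 395 TPM. Tef, a relative of Dbp, was 124, 125 and 137 and 185, 193 and 187 TPM. The repressor Nfil3 was 15, 19.4 and 16.7 TPM at 6 h, 6.73, 10.5 and 6.15 at 24 h and 2.01, 5.08 and 4.42 without noise. The part of time of day in these changes was not tested and cannot be told apart from time after noise.

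Of 13 glucocorticoid-responsive and metallothionein genes, 3 were separated upward and 7 downward, and 0 were called by limma (1 and 4 at an unadjusted p under 0.05). Sgk1, a kinase induced by corticosteroids, was 91.1, 73.4 and 86.4 TPM at 6 h and 41.7, 48.1 and 38 TPM at 24 h, and Mt1 was 705, 852 and 818 and 477, 358 and 523 TPM. Of 16 NRF2 and antioxidant genes, 3 were separated each way, against 11.6% upward and 7.97% downward of all genes tested. Gclc, which starts glutathione synthesis, was 28.3, 23 and 28 TPM at 6 h and 14.5, 14.8 and 9.36 TPM at 24 h, and Nqo1, a quinone reductase, was 0.912, 2.26 and 1.36 and 6.29, 3.99 and 4.44 TPM. The heat shock list had a median change of 0.07, the unfolded protein and integrated stress list 0.17, the p53 and cell death list 0.01 and the nuclear-encoded oxidative phosphorylation list 0.13, each with 0 called by limma (2, 2, 5 and 0 genes at an unadjusted p under 0.05). The lists held 15, 24, 22 and 21 tested genes, and 7.95% of all genes tested reached that p. In the p53 and cell death list, 3 members reached the filter only with the 24 h libraries and 1 only with the 6 h libraries.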
